A study of Mus musculus with 7 samples.

Results

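In muscle stem cells (MuSCs), 10 cell-surface and chemokine genes, of the 56748 genes in the count files, were compared between WT and homozygous Jag2sm MuSCs. They are 7 surface markers of satellite cells (*Vcam1*, *Sdc3*, *Sdc4*, *Cd34*, *Calcr*, *Cd82* and *Ncam1*) and 3 genes of a chemokine axis, the ligand *Cxcl12* and its receptors *Cxcr4* and *Ackr3*. Each was found by matching its Ensembl gene identifier to its symbol. The rule has no threshold on a measured value, but the genes were picked with earlier results of these data known. MuSCs came from hind limb muscles of adult mice. Dissociated cells carrying CD31, CD45 or Sca1 were removed on magnetic columns, integrin α7-positive cells were kept, and the labels describe culture in growth medium with serum and bFGF. The WT group has 3 RNA samples. The Jag2sm group has 4 RNA samples from mice homozygous for *sm*, a *Jag2* allele that the study describes as hypomorphic, although the labels write the genotype as Jag2-/-. No transgene or Cre was named for either group, and the sex of the mice behind each sample was not given in the sources used here. Nor do the sources say that each sample came from its own mouse, so the p-values measure the spread between these RNA samples, which may be technical.

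Satellite cells lie between the muscle fiber and its basal lamina and are recognized by the adhesion molecules, proteoglycans and receptors on their surface. Several of these proteins hold the cell in its niche or keep it quiescent, and their amounts shift as the cell activates, divides and differentiates. CXCL12 is a secreted chemokine that draws cells through CXCR4, a G protein-coupled receptor. ACKR3 binds the same ligand but acts mainly as a scavenger that takes it up, and heparan sulfate chains, such as those on syndecans, hold CXCL12 at the cell surface.

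Reads counted on genes numbered 187834 to 1937581 per library, with the lowest depth in WT replicate 1. Counts are given as CPM, the count scaled to a library of fixed size after TMM normalization. The 3 counts taken as the limit of a count of 0 amount to 17.3 CPM in WT replicate 1 and to between 1.48 and 4.24 CPM in each of the other libraries, and such limits cover counting error only. WT replicate 1 lay far from the other libraries on the first principal component of all tested genes. It correlated at 0.779 and 0.771 in log2 CPM with WT replicates 2 and 3, which correlated at 0.966 with each other. Of its aligned reads 45.1% fell on no annotated gene, against 20.8% to 25.7% in the other libraries. *Jag2* was at 80.7 to 116 CPM in WT and at 42.4 to 78.8 CPM in Jag2sm libraries, without overlap. It was not called as lower (log2 fold change -0.64, adjusted p = 0.166 in edgeR's quasi-likelihood test). Such downward separation was seen in 12.2% of all genes tested. Unaligned reads made up 46.0% to 50.8% of Jag2sm replicates 1, 2 and 4, but 3.07% of Jag2sm replicate 3 and 2.44% to 3.24% of the WT libraries. In every fit without Jag2sm replicate 3, genotype and this share therefore cannot be told apart. The myogenic markers *Pax7*, *Myf5*, *Myod1*, *Itga7*, *Cdh15* and *Des* were detected in all 7 libraries. Summed over their marker lists, immune genes stayed at or below 4.08 CPM, glial genes at or below 9.90 CPM and endothelial genes at or below 14.1 CPM in every library. A list of 8 myocyte genes, which mark differentiating muscle cells, summed to 13400 to 24000 CPM in WT and to 505 to 4020 CPM in Jag2sm libraries. Of these, 6 were called lower, and 3 when Jag2sm replicate 2 was left out. The part of this shift in the members' values was not tested, and in bulk RNA a change in the number of cells of a type cannot be told apart from a change in RNA per cell.

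Of the 10 members, 9 had enough counts to be tested and *Calcr* did not. *Cxcl12* was higher in Jag2sm MuSCs, about 3-fold, and was the 1 member called. The threshold for a call was an adjusted p of 0.05 in edgeR's quasi-likelihood test, adjusted over the 9489 genes tested by the Benjamini-Hochberg method. Across those genes 6.26% were called, 1.42% as higher and 4.84% as lower in Jag2sm MuSCs. Of the members tested, 8 had a positive log2 fold change and *Ncam1* a negative one. The median was 0.71 for the members, against 0.05 for all genes tested, of which 54% were positive. In 2 members, *Cxcl12* and *Ackr3*, every Jag2sm library was above every WT library, and in 0 members was every Jag2sm library below. Such separation was seen upward in 10.3% and downward in 12.2% of all genes tested. Apart from *Cxcl12*, *Sdc3*, *Ackr3* and *Vcam1* had an unadjusted p under 0.05 without being called. Across all 9489 genes tested, 1873 had an unadjusted p under 0.05. That number and the shares of separated genes are the background for every such count given below.

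**Figure D1:**
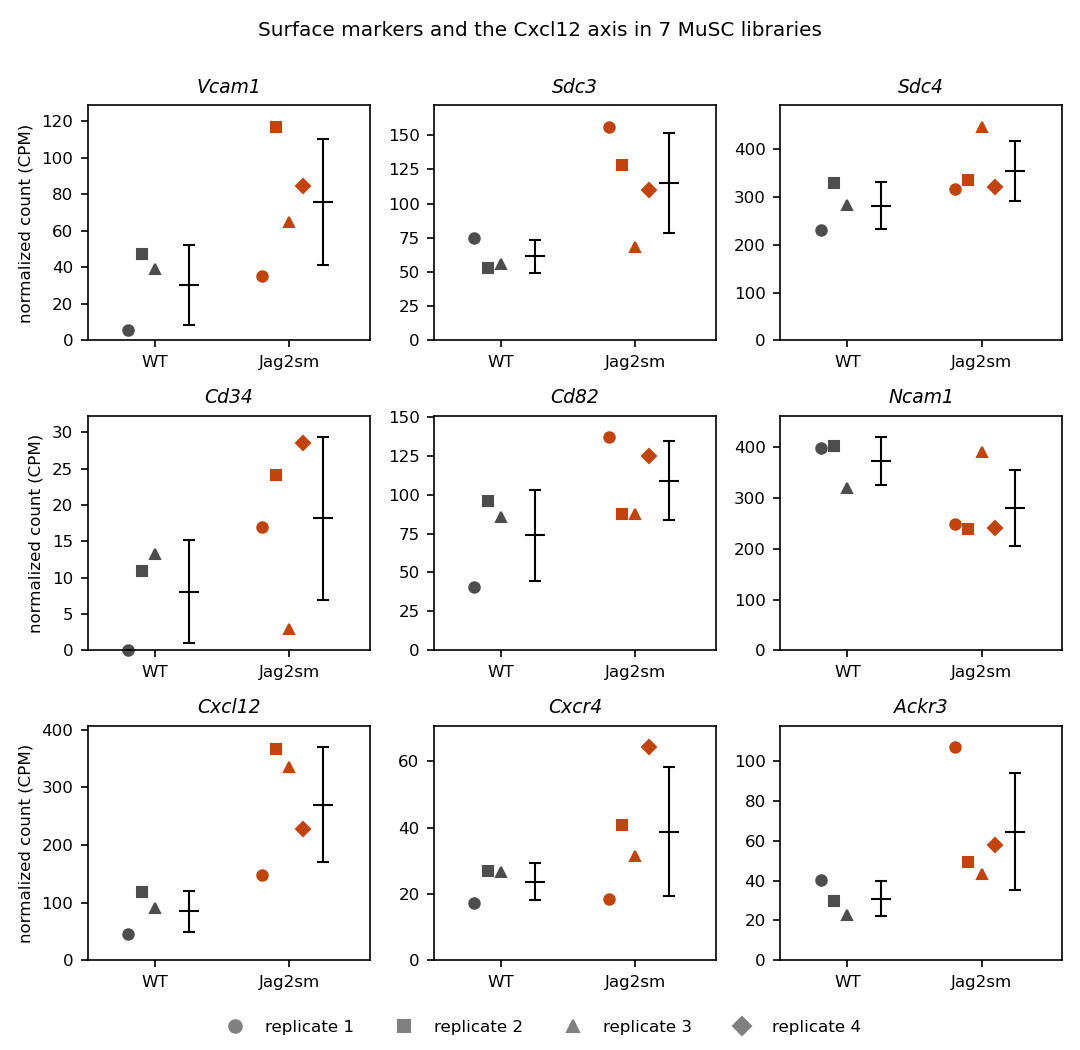
Normalized counts (CPM, linear axes from 0) of the 9 members with enough counts to be tested, in 3 WT (grey) and 4 Jag2sm (orange) libraries, with the replicate number as the symbol and the mean ± SD beside the points. The *Cxcl12* values run from 46.1 to 118 CPM in WT and from 148 to 367 CPM in Jag2sm MuSCs, and Jag2sm replicate 3 stands apart from the other Jag2sm libraries in *Sdc4* and *Ncam1*.

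*Cxcl12* (ENSMUSG00000061353.12), the ligand, lies on chromosome 6 of GRCm39 from 117144945 to 117158328 on the plus strand, and its exons overlap no other annotated gene. It was at 46.1, 118 and 91.0 CPM in WT replicates 1, 2 and 3 and at 148, 367, 335 and 228 CPM in Jag2sm replicates 1 to 4. The lowest Jag2sm library was above the highest WT library, and Jag2sm replicate 3 was as high as the others. On the log2 scale *Cxcl12* rose by 1.57 (standard error 0.365, 95% interval 0.76 to 2.37, adjusted p = 0.0298 in edgeR). Within batches 1, 2 and 3, each of which holds 1 library of either genotype by the labels, the log2 difference was 1.65, 1.63 and 1.86. The batch number repeats the replicate number. Same-numbered libraries shared little deviation across genes (correlations of 0.0740, 0.0144 and 0.0539), so within-batch differences here and below are not paired support. Batch 4 holds a Jag2sm library only. Leaving out a library kept the log2 fold change between 1.36 and 1.88, but 4 of these 7 fits did not call it. The adjusted p was 0.0604 without WT replicate 1, 0.0561 without WT replicate 2, 0.126 without WT replicate 3 and 0.0887 without Jag2sm replicate 2. By DESeq2 it was 0.00156 and by limma-voom 0.0399 with all 7 libraries.

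*Cxcl12* is known to be made by fibro-adipogenic and mural cells as well as by MuSCs, so their markers were read beside it. The 8 fibro-adipogenic markers summed to 0 to 11.0 CPM in WT and to 5.71 to 24.0 CPM in Jag2sm libraries. *Ly6a*, which encodes Sca1, was the most abundant, at 0, 2.59 and 1.90 CPM in WT and at 9.90, 19.3, 2.46 and 2.45 CPM in Jag2sm replicates 1 to 4. *Cd248* was at 0 to 5.17 CPM in WT and at 0.691 to 11.3 CPM in Jag2sm libraries. *Pdgfra* was at 0, 0.646 and 0 CPM in WT and at 2.83, 1.38, 0.985 and 0.815 CPM in Jag2sm replicates 1 to 4. Each of these was above WT, on 1 and 7 counts. *Dcn* (3 WT and 0 Jag2sm counts) and *Pi16* (3 and 1) went the other way, and *Dpt* and *Lum* had 0 counts in all 7. The sum was highest in Jag2sm replicates 1 (24.0 CPM) and 2 (22.1 CPM), which had the lowest and the highest *Cxcl12* of the Jag2sm libraries. The part of these cells in the *Cxcl12* values was not tested. The 6 mural markers summed to 59.7 to 86.5 CPM in WT and to 68.0 to 89.8 CPM in Jag2sm replicates 2, 3 and 4. The sum was 687 CPM in Jag2sm replicate 1, of which *Rgs5* made up 645 CPM. The markers did not move together. *Notch3* was at 0, 31.7 and 27.5 CPM in WT and at 41, 53.9, 18.2 and 50.5 CPM in Jag2sm replicates 1 to 4. *Rgs5* was higher in every Jag2sm library, while *Cspg4* averaged 15.9 CPM in WT and 3.45 CPM in Jag2sm libraries. *Abcc9* was called lower. The study reports *Notch3* in MuSCs themselves. Similar sums therefore do not show a similar level of mural cells, whose part in the *Cxcl12* values was not tested.

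The bases upstream of *Cxcl12* and *Ackr3* are shown because these are the members whose genotypes did not overlap. Each is the 250 bases before the annotated start in RefSeq on GRCm38.p6, a build other than that of the gene coordinates, 5′ to 3′ on the plus strand, at chr6:117168285-117168534 for *Cxcl12* and chr1:90203730-90203979 for *Ackr3*. Capitals mark TGGGAA, the core of the site bound by RBPJ, the DNA-binding partner of NOTCH, searched on both strands.
Cxcl12: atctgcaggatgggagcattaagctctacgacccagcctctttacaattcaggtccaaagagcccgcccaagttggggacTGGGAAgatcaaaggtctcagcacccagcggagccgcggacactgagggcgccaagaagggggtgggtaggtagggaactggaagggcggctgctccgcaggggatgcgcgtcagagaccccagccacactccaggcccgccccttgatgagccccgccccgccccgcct
Ackr3: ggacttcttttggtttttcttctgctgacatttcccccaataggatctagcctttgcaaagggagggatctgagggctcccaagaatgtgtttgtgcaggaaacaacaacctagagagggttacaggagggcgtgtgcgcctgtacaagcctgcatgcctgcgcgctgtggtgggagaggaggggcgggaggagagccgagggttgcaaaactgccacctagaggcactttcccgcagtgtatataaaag
The *Cxcl12* window held 1 match, which begins 170 bases before the start. The *Ackr3* window held 0, which says only that these letters are not in it. Windows were found for 8 of the members (12 windows, since *Calcr* and *Cd82* have several starts), and the *Cxcl12* window was the 1 with a match. Among all 32851 RefSeq windows of the same length, 21.6% held TGGGAA. The E-box CANNTG, the motif of MYOD and its relatives, was in 3 of the 12 windows, 1 of *Calcr* and 2 of *Cd82*, against 66.2% of all windows, and CANNTG reads the same on both strands. The hypoxia response core ACGTG was in 2 of the 12, both of *Cd82*, against 16.6%. The AP-1 motif TGANTCA was in 0, against 6.75%. A match is a description of the letters and not evidence of binding.

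*Ackr3* (ENSMUSG00000044337.6, chromosome 1, 90131689 to 90144473), the scavenging receptor, had higher values in every Jag2sm library but was not called. It was at 40.4, 29.7 and 22.8 CPM in WT replicates 1 to 3 and at 107, 49.1, 43.4 and 57.9 CPM in Jag2sm replicates 1 to 4, so that Jag2sm replicate 3 lay just above WT replicate 1. With a log2 fold change of 1.14 and a 95% interval of 0.33 to 1.94 (standard error 0.365), its adjusted p in edgeR was 0.1, and the differences within batches 1, 2 and 3 were 1.38, 0.69 and 0.88 on the log2 scale. The value of WT replicate 1 rests on 7 counts. Its exact Clopper-Pearson 95% interval, 16.2 to 83.1 CPM, covers the values of Jag2sm replicates 2, 3 and 4.

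*Cxcr4* (ENSMUSG00000045382.7, chromosome 1, 128515936 to 128520044), the signaling receptor, was at 17.3, 27.1 and 26.6 CPM in WT and at 18.4, 40.8, 31.5 and 64.4 CPM in Jag2sm replicates 1 to 4. The genotypes overlapped, with the lowest Jag2sm library between the WT values. For *Cxcr4* the log2 difference was 0.62 (adjusted p = 0.413 by edgeR, standard error 0.388), and its 95% interval of -0.23 to 1.48 holds both no difference and a rise as large as that of *Ackr3*. WT replicate 1 held 3 counts of *Cxcr4*, which leaves its level anywhere between 3.57 and 50.5 CPM (exact Clopper-Pearson 95% interval).

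**Figure D2:**
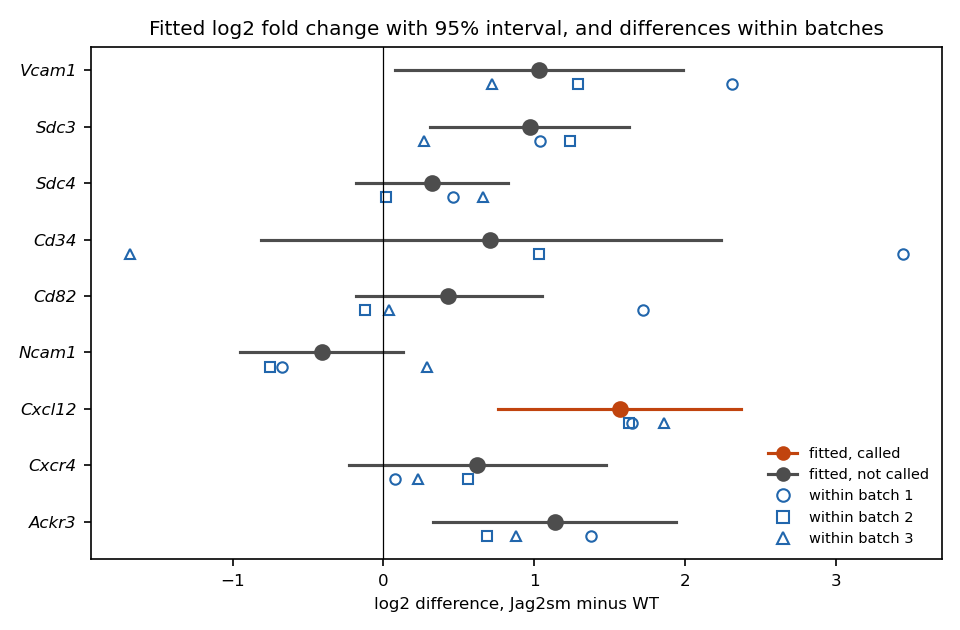
Fitted log2 fold change of each member (Jag2sm minus WT, filled circles) with its 95% interval, and the difference in log2 CPM between the 2 libraries of batches 1, 2 and 3 (open symbols). *Cxcl12*, at 1.57, is the called member and its within-batch values lie between 1.63 and 1.86, while those of *Cd34* run from -1.68 to 3.45.

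Of 16 further genes of CXCL12 signaling (other ligands, G protein subunits, receptor kinases, arrestins and a degradation enzyme), 11 were tested. By edgeR 0 were called and 2 (*Gnai1* and *Itch*) had an unadjusted p under 0.05, and DESeq2 and limma-voom also called 0. Their median log2 fold change was 0.16, with 8 positive and 3 negative. The most abundant were *Gnai2* and *Gnb1*, subunits of the G proteins that CXCR4 engages. *Gnai2* had a mean of 281 ± 18.6 CPM in WT and of 339 ± 66.3 CPM in Jag2sm MuSCs (SD over 3 and 4 libraries), a log2 fold change of 0.27 with an interval of -0.22 to 0.75. *Gnb1* had 295 ± 44.7 and 329 ± 51.3 CPM, a log2 fold change of 0.14 with an interval of -0.35 to 0.63. *Cxcl11*, another ligand of ACKR3, had 0 counts in all libraries, and *Dpp4*, a protease that cuts CXCL12, had 1.

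Among 15 other chemokine genes, 5 were tested. With all 7 libraries edgeR called 0 of them, although all 5 had an unadjusted p under 0.05. Limma-voom called 0 and DESeq2 called 2 (*Ccl5* and *Cxcl5*). *Ccl5*, *Cxcl1* and *Cxcl5* passed the filter on low counts only through the Jag2sm libraries, where they are high, so their p-values carry that selection. By the rule for naming genes, *Cx3cl1* and *Cxcl5* are described as the most abundant. *Ccl2*, *Ccl5* and *Cxcl1*, the rest of those tested, were added after their values were seen. *Cxcl5*, an attractant of neutrophils, was at 0, 1.29 and 1.90 CPM in WT replicates 1 to 3 and at 238, 24.2, 0.493 and 29.3 CPM in Jag2sm replicates 1 to 4. *Cxcl1*, of the same family, was at 5.76, 0.646 and 0 CPM in WT and at 102, 63.6, 0 and 50.5 CPM in Jag2sm MuSCs. *Ccl5*, an attractant of lymphocytes, stood at 0, 0.646 and 0 CPM in WT and at 79.2, 42.2, 0.493 and 18.7 CPM in Jag2sm libraries. *Ccl2*, which draws monocytes, had 17.3, 0.646 and 0.948 CPM in WT and 59.4, 31.8, 3.94 and 18.7 CPM in Jag2sm MuSCs. In all 4 genes Jag2sm replicates 1, 2 and 4 lay above every WT library and Jag2sm replicate 3 did not. This pattern differs from that of *Cxcl12*, in which Jag2sm replicate 3 was the second highest library. Jag2sm replicate 3 is also the Jag2sm library with few unaligned reads. The part of that property in these values was not tested.

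The 4 chemokines rested on 1 to 5 counts in the WT libraries together, for *Ccl5* 1 against 141 in the Jag2sm libraries, a log2 ratio of 6.18 with an exact binomial interval of 3.67 to 11.49. For *Cxcl1* the counts were 2 and 226, which gives 5.86 (3.99 to 8.91) on the log2 scale. *Cxcl5* had 4 and 240 counts (4.94, 3.57 to 6.83) and *Ccl2* 5 and 119 (3.61, 2.35 to 5.26). These intervals cover counting error only. With all 7 libraries edgeR gave an adjusted p of 0.0736 for *Ccl5* and *Cxcl1*, 0.101 for *Ccl2* and 0.123 for *Cxcl5*. With the batch number as a replicate block all 4 were called, with adjusted p of 0.00145 for *Ccl5*, 0.00233 for *Cxcl1*, 0.0265 for *Ccl2* and 0.0308 for *Cxcl5*. Without Jag2sm replicate 3, the Jag2sm library in which all 4 were lowest, they were called as well. Their adjusted p was 0.00357, 0.00148, 0.0152 and 0.0217 in the same order, and *Cx3cl1* was called too (0.0272). In the fits without Jag2sm replicate 1, 2 or 4, only 2 of the 5 tested chemokines passed the filter, and 0 were called. Over the settings in which each could be fitted, the adjusted p of *Ccl5* reached 0.619, that of *Cxcl1* 0.774, that of *Ccl2* 0.359 and that of *Cxcl5* 0.723. *Cx3cl1*, a membrane-bound chemokine, was at 46.1, 22 and 17.1 CPM in WT and at 93.3, 78.8, 23.7 and 46.5 CPM in Jag2sm replicates 1 to 4, a log2 fold change of 1.34 with an adjusted p of 0.162 by edgeR with all 7 libraries. *Cxcl10* had counts in Jag2sm replicate 2 only, at 3.46 CPM, and *Ccl8* and *Ccl9* had 0 in every library.

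**Figure D3:**
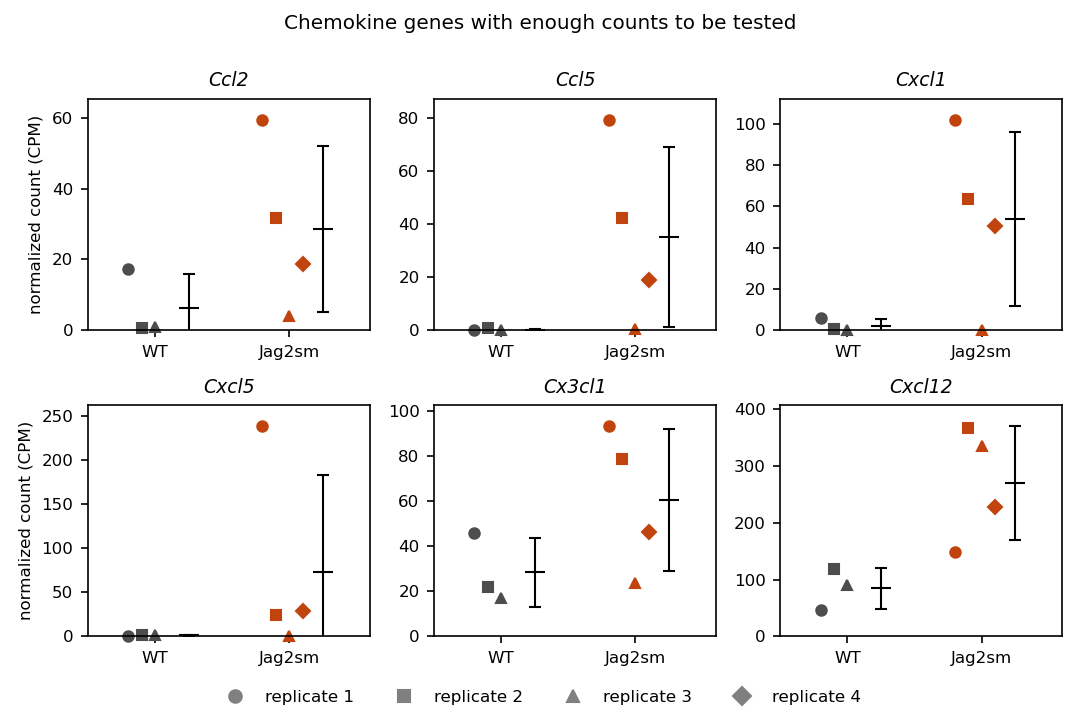
Normalized counts (CPM, linear axes from 0) of the 5 tested chemokine genes of the list and of *Cxcl12*, by library, with the mean ± SD (bars cut at 0). In *Ccl2*, *Ccl5*, *Cxcl1* and *Cxcl5* the triangle of Jag2sm replicate 3 lies at 0 to 3.94 CPM among the WT values, while in *Cxcl12* it lies at 335 CPM.

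*Vcam1* (ENSMUSG00000027962.15, chromosome 3, 115903598 to 115923355) encodes an adhesion molecule bound by integrin α4β1 and is used to sort satellite cells. It was at 5.76, 47.2 and 38.9 CPM in WT replicates 1 to 3 and at 35.3, 117, 65.0 and 84.8 CPM in Jag2sm replicates 1 to 4. Jag2sm replicates 2, 3 and 4 were above every WT library, and Jag2sm replicate 1 was below WT replicates 2 and 3. Its log2 fold change of 1.03 (standard error 0.433, 95% interval 0.08 to 1.99) had an adjusted p of 0.212 by edgeR. Within batches 1, 2 and 3 the log2 difference was 2.31, 1.29 and 0.72. The WT value of 5.76 CPM rests on 1 count, with an exact interval of 0.146 to 32.1 CPM. Without that library the log2 fold change of *Vcam1* was 0.82. The exons of *Vcam1* overlap those of *Gm43109* on the opposite strand, and since the strand setting of the counting was not given in the sources used here, reads of the pair cannot be told apart.

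Of 10 partner genes of the adhesion members, 6 were tested, 0 were called higher and 2 were called lower by edgeR and by limma-voom, *Itga4* and *St8sia2*. DESeq2 called *St8sia2* but not *Itga4* (adjusted p = 0.0557), and called *Itga9*, which edgeR did not test, as lower (adjusted p = 0.00925) on 20 WT and 3 Jag2sm counts. *Itga4*, the integrin chain that binds VCAM1, was at 34.6, 20.0 and 20.9 CPM in WT and at 7.07, 7.60, 9.85 and 8.15 CPM in Jag2sm replicates 1 to 4, every one below WT. It fell by 1.42 on the log2 scale (adjusted p = 0.0263 by edgeR, standard error 0.319). With the batch number as a replicate block it was not called (-1.43, adjusted p = 0.0969), and it was called in 2 of the 7 fits that leave out a library, those without WT replicate 1 and without Jag2sm replicate 3, with the highest adjusted p, 0.0880, without WT replicate 3. The exons of *Itga4* overlap those of *Cerkl* on the other strand. The other gene that fell, *St8sia2*, is described with *Ncam1*.

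Syndecans carry heparan sulfate chains that hold growth factors and chemokines at the membrane, and *Sdc3* and *Sdc4* mark satellite cells. *Sdc3* (ENSMUSG00000025743.15, chromosome 4, 130519826 to 130556217) was at 74.9, 53.0 and 56.0 CPM in WT and at 156, 128, 68.0 and 110 CPM in Jag2sm replicates 1 to 4. Jag2sm replicate 3 lay within the WT range and the other Jag2sm libraries above it. The fitted log2 difference of *Sdc3* was 0.97 (95% interval 0.31 to 1.63, standard error 0.298, adjusted p = 0.0871 by edgeR). Without Jag2sm replicate 3, *Sdc3* was called, with a log2 fold change of 1.17 and an adjusted p of 0.0182 by edgeR. That fit keeps only the Jag2sm libraries with many unaligned reads, so genotype and that property cannot be told apart in it. Over all fits that leave out a library, the adjusted p of *Sdc3* ran from 0.0182 to 0.279. The exons of *Sdc3* overlap those of *Gm12970* and *Gm26716* on the opposite strand.

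*Sdc4* (ENSMUSG00000017009.4, chromosome 2, 164266025 to 164285807) was at 231, 328 and 283 CPM in WT and at 317, 334, 446 and 320 CPM in Jag2sm MuSCs. Jag2sm replicates 1, 2 and 4 lay together near the top of the WT range and Jag2sm replicate 3 lay above them. *Sdc4* had a log2 fold change of 0.32 (standard error 0.229, 95% interval -0.18 to 0.83, adjusted p = 0.485).

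Of 8 other heparan sulfate proteoglycans, the remaining syndecans and the glypicans, 4 were tested, with a median log2 fold change of 0.28. By edgeR 0 were called and 2 (*Sdc1* and *Sdc2*) had an unadjusted p under 0.05, limma-voom called 0 and DESeq2 called *Sdc2*. *Sdc2* was at 11.5, 113 and 82.5 CPM in WT and at 119, 269, 203 and 274 CPM in Jag2sm MuSCs, and *Sdc1* at 0, 49.8 and 36.0 CPM and at 103, 76.0, 102 and 57.1 CPM. In both, every Jag2sm library was above every WT library, as in 10.3% of all genes tested. For *Sdc2* the log2 difference was 1.45 (adjusted p = 0.0891, standard error 0.449), and *Sdc2* was called with the replicate block (1.56, adjusted p = 0.0383). *Sdc1* had 1.19 (standard error 0.422, adjusted p = 0.135). The exons of *Sdc1* overlap those of *Gm4755*. For both genes WT replicate 1, with 2 and 0 counts, was the lowest library.

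**Figure D4:**
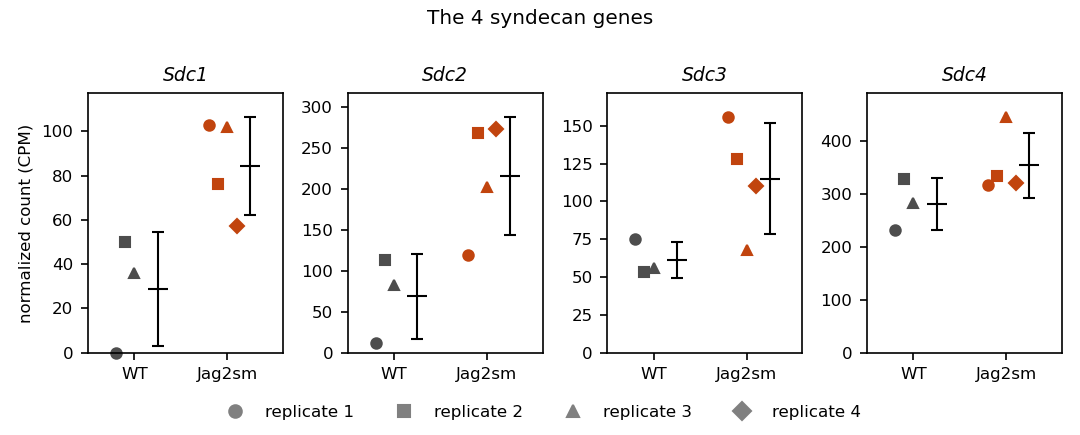
Normalized counts (CPM, linear axes from 0) of the 4 syndecan genes by library, with the mean ± SD. The Jag2sm libraries lie above the WT libraries in *Sdc1* and *Sdc2*, 3 of 4 do so in *Sdc3*, and in *Sdc4* the genotypes overlap, with Jag2sm replicate 3 highest at 446 CPM.

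*Cd34* (ENSMUSG00000016494.10, chromosome 1, 194621029 to 194647172) encodes a sialomucin that marks quiescent satellite cells and also endothelial and fibro-adipogenic cells. It was at 0, 11.0 and 13.3 CPM in WT replicates 1 to 3 and at 17.0, 24.2, 2.96 and 28.5 CPM in Jag2sm replicates 1 to 4. Jag2sm replicates 1, 2 and 4 were above every WT library and Jag2sm replicate 3, with 6 counts and an exact interval of 1.08 to 6.43 CPM, was below WT replicates 2 and 3. With 0.71 on the log2 scale, the difference had a 95% interval of -0.81 to 2.24 (standard error 0.689, adjusted p = 0.624 by edgeR). Within batches 1, 2 and 3 it was 3.45, 1.03 and -1.68, and the first of these rests on 0 WT counts, which allow up to 17.3 CPM. Without Jag2sm replicate 3 the log2 fold change of *Cd34* was 1.12 and it was still not called (adjusted p = 0.152 by edgeR). The Jag2sm libraries left in that fit are those with many unaligned reads. Of the 6 endothelial markers, *Tek* was at 0.646 to 11.5 CPM in WT and at 0 to 11.3 CPM in Jag2sm libraries. *Pecam1*, which encodes CD31, was at 0, 1.29 and 0 CPM in WT and at 1.41, 4.84, 2.96 and 1.63 CPM in Jag2sm replicates 1 to 4, each above WT, on 2 and 16 counts. *Kdr* and *Tie1* had 0 counts in all libraries. The part of endothelial and fibro-adipogenic cells in the *Cd34* values was not tested. The exons of *Cd34* overlap those of *Gm16897* on the opposite strand.

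*Cd82* (ENSMUSG00000027215.14, chromosome 2, 93249455 to 93293485), a tetraspanin of the satellite cell membrane, was at 40.4, 95.7 and 85.4 CPM in WT and at 137, 87.8, 87.7 and 125 CPM in Jag2sm MuSCs. Jag2sm replicates 1 and 4 were above the WT range and the other Jag2sm libraries inside it. *Cd82* had a log2 fold change of 0.43 (95% interval -0.18 to 1.05, standard error 0.278, adjusted p = 0.428), with 1.72, -0.12 and 0.04 within batches 1, 2 and 3. The difference of batch 1 rests on 7 counts of *Cd82* in WT replicate 1.

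*Calcr* (ENSMUSG00000023964.16, chromosome 6, 3685680 to 3764714) encodes the calcitonin receptor, a marker of quiescence that satellite cells lose on activation. It had 1 count in all 7 libraries, in WT replicate 3 (0.948 CPM), and was not tested. The limit of a count of 0 is 0.554 CPM over the Jag2sm libraries together, and the exact interval for WT replicate 3 is 0.0240 to 5.28 CPM. A difference between the genotypes in *Calcr* was not detectable at this depth. Of 10 partner genes (coreceptors, peptide ligands, type V collagens that act as a surrogate ligand, and the G protein subunit *Gnas*), 4 were tested, with a median log2 fold change of 0.14. EdgeR, DESeq2 and limma-voom each called 0, and 0 had an unadjusted p under 0.05. *Col5a2* averaged 115 ± 49.6 CPM in WT and 127 ± 47.3 CPM in Jag2sm MuSCs (SD over 3 and 4 libraries), a log2 fold change of 0.05 with an interval of -0.70 to 0.81. *Gnas* was at 71.5 ± 24.0 and 47.3 ± 6.23 CPM, a log2 fold change of -0.47 with an interval of -1.01 to 0.08.

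*Ncam1* (ENSMUSG00000039542.17, chromosome 9, 49413436 to 49710357), the neural cell adhesion molecule, is found on satellite cells, on committed myoblasts and on young myotubes. It was at 398, 402 and 319 CPM in WT and at 249, 239, 391 and 240 CPM in Jag2sm replicates 1 to 4. Jag2sm replicates 1, 2 and 4 lay between 239 and 249 CPM, below the WT range, and Jag2sm replicate 3 lay inside it. For *Ncam1* the log2 difference was -0.41, with a 95% interval of -0.95 to 0.13 (standard error 0.245, adjusted p = 0.396 by edgeR), and the batches gave -0.67, -0.75 and 0.29. Without Jag2sm replicate 3 the log2 fold change of *Ncam1* was -0.61 (adjusted p = 0.156 by edgeR), again with only the Jag2sm libraries that have many unaligned reads. The exons of *Ncam1* overlap those of *Gm11149* on the opposite strand.

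*St8sia2*, an enzyme that adds polysialic acid to NCAM, fell in Jag2sm MuSCs. It was at 133, 132 and 146 CPM in WT and at 50.9, 46.3, 62.1 and 68.5 CPM in Jag2sm MuSCs, with Jag2sm replicate 3 among the other Jag2sm libraries. The log2 difference was -1.26 (adjusted p = 0.00656 by edgeR, standard error 0.202), the gene lies on chromosome 7 from 73588867 to 73663438 with no exon overlap, and it was called in all 7 fits that leave out a library. *St8sia4*, the other enzyme of this kind, was at 0 to 24.7 CPM in WT and at 0 to 16.3 CPM in Jag2sm libraries, with a log2 fold change of -1.80 and an adjusted p of 0.319.

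Of 14 other surface molecules of satellite cells, 13 were tested, 0 were called higher and 1, *Dag1*, was called lower by edgeR. DESeq2 called 3, *Dag1* and *Itgb1* as lower and *Cd44* as higher (log2 fold change 0.92, adjusted p = 0.0257, against 0.90 and 0.076 in edgeR). Limma-voom, and edgeR without WT replicate 1, called *Dag1* and *Fgfr4* as lower. The median log2 fold change was -0.38, with 4 positive and 9 negative. By edgeR 6 had an unadjusted p under 0.05 (*Dag1*, *Itgb1*, *Fgfr4*, *Cd44*, *Cav1* and *Met*), the last 2 named after their values were seen. In *Dag1* and *Itgb1* every Jag2sm library was below every WT library, and in *Cav1*, *Met* and *Cd44* every one was above. Across all genes tested, 12.2% were separated downward and 10.3% upward. *Cav1* had a log2 fold change of 1.28 (adjusted p = 0.0692 by edgeR) and *Met* of 0.74 (0.141). *Dag1*, which encodes the dystroglycan that ties the cell to laminin, was at 594, 224 and 176 CPM in WT and at 105, 73.9, 74.4 and 111 CPM in Jag2sm MuSCs. On the log2 scale it changed by -1.80 (adjusted p = 0.0213, standard error 0.387). Leaving out WT replicate 1, where *Dag1* was highest, gave -1.17, and *Dag1* was not called without Jag2sm replicate 2 (adjusted p = 0.0818). *Itgb1*, the integrin chain that pairs with integrin α4 and α7, averaged 468 ± 56.2 CPM in WT and 302 ± 26.1 CPM in Jag2sm MuSCs (SD over 3 and 4 libraries), every Jag2sm library below WT, and was not called by edgeR (log2 fold change -0.63, adjusted p = 0.105) but was by DESeq2 (-0.58, adjusted p = 0.0249). *Cdh2*, a cadherin of the niche, was at 321 ± 74.3 and 242 ± 54.1 CPM (log2 fold change -0.38, adjusted p = 0.431). *Chodl* had 1 count in all.

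Of 11 nuclear genes of the stem cell state, 9 were tested. EdgeR, DESeq2 and limma-voom each called 0, and 3 (*Pax7*, *Cdkn1b* and *Cdkn1c*) had an unadjusted p under 0.05, with 4 positive and 5 negative values and a median log2 fold change of -0.47. *Pax7*, the transcription factor that defines satellite cells, was at 28.8, 95.7 and 80.6 CPM in WT and at 100, 129, 172 and 125 CPM in Jag2sm replicates 1 to 4. Every Jag2sm library was above every WT library, as in 10.3% of all genes tested. For *Pax7* the log2 difference was 0.80 (adjusted p = 0.174 by edgeR, standard error 0.308). *Rbpj* averaged 104 ± 28.0 and 133 ± 18.6 CPM (SD), with a log2 fold change of 0.29 and an adjusted p of 0.526. With the replicate block 1 gene of this list was called, the cell cycle inhibitor *Cdkn1c* (log2 fold change -2.87, adjusted p = 0.0413), named after its values were seen.

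Levels of the members are given below per kilobase of the canonical transcript. These are long reads of direct cDNA, whose counts need not scale with transcript length, and the order depends on that division. In undivided CPM, *Ncam1* (mean 373) was above *Sdc4* (281) in WT MuSCs. There *Sdc3* (61.3) was above *Ackr3* (30.9) and *Cxcr4* (23.7). In Jag2sm MuSCs *Cxcl12* (270) was above *Cd82* (109). In WT MuSCs the order was *Sdc4* (102 ± 17.8 CPM per kb), *Ncam1* (60.3 ± 7.59), *Cd82* (40.5 ± 16.1), *Cxcl12* (15 ± 6.38), *Cxcr4* (13.0 ± 3.03), *Ackr3* (10.1 ± 2.88), *Vcam1* (8.80 ± 6.30), *Sdc3* (8.11 ± 1.57), *Cd34* (3.28 ± 2.88) and *Calcr* (0.0899), with the SD over 3 libraries. By that spread *Ncam1* and *Cd82* overlapped, as did each neighboring pair from *Cxcl12* to *Sdc3*. In Jag2sm MuSCs *Sdc4* was at 129 ± 22.5 CPM per kb, *Cd82* at 59.9 ± 14, *Cxcl12* at 47.6 ± 17.7 and *Ncam1* at 45.2 ± 12.0 (SD over 4 libraries), and the last 3 were within each other's spread. *Vcam1* (21.7 ± 9.91), *Cxcr4* (21.3 ± 10.6), *Ackr3* (20.9 ± 9.52) and *Sdc3* (15.3 ± 4.85) followed, also within their spread, and *Cd34* came next at 7.36 ± 4.54, overlapping *Sdc3*.

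**Figure D5:**
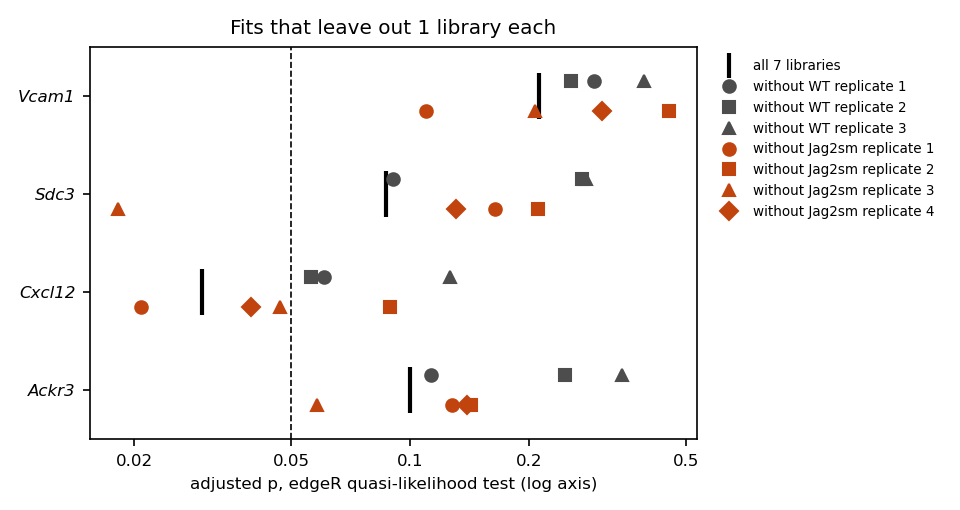
Adjusted p (log axis) of the 4 members with an unadjusted p under 0.05, from the fit of all 7 libraries (black bars) and from fits that leave out 1 library each (grey for WT, orange for Jag2sm, the symbol giving the replicate). The dashed line is the threshold of 0.05. *Cxcl12* lies between 0.0208 and 0.126, *Sdc3* passes the line without Jag2sm replicate 3, and *Ackr3* and *Vcam1* stay to its right.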

How the data were processed

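Direct cDNA of 7 MuSC RNA samples was sequenced on PromethION flow cells. The authors called bases with dorado, used minimap2 2.17 for alignment to GRCm39 and htseq for counting. The deposited values are raw counts per gene. The annotation release and strand setting are not given in the sources used here. A deposited table of the authors' own comparison (mean, log2 fold change, standard error and p-values) was not used. The 5 summary rows per file were left out of tests. Symbols and places came from GENCODE M39 (GRCm39), which held 56017 of 56748 identifiers, and upstream sequences from RefSeq (GRCm38.p6).

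In R 4.3.3, edgeR 4.0.16 was used with filterByExpr (minimum count 10, total 15), TMM and glmQLFTest without covariates. The standard error is the log2 fold change over the square root of F. Log2 CPM within batches used a prior count of 2. Alternatives were DESeq2 1.42.0, limma-voom (limma 3.58.1), DESeq2 size factors, library size alone, no filter, a replicate block and each library left out. On simulated counts with 200 genes changed by a log2 fold change of 2, edgeR recovered 81.5% among 9489 genes, and 10.9% of its calls were false. That false share is above the threshold of 0.05. The planted change is larger than that of any tested member (*Cxcl12*, 1.57, has the largest), so the recovery does not describe the members. The labels give a batch number equal to the replicate number, which pairs replicates 1 to 3. Deviations of same-numbered libraries correlated at 0.0740, 0.0144 and 0.0539 across genes, and those of differently numbered libraries at -0.0944 to 0.0644. Members and gene lists were chosen with earlier results of these data known. Named genes are the members, the called genes of each list and, where fewer than 2 were called, the 2 most abundant.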

Additional observations from a re-analysis of the deposited data

Results flagged for a closer look

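Among the 4 Jag2sm libraries, 74 members and listed genes were examined for 1 library that stands apart by Dixon's ratio, the gap to the nearest library over the group's range. Chance puts about 1 group in 20 past the 95% critical value, and 6 genes were past it. Jag2sm replicate 3 was high in *Ncam1* (ratio 0.936, 391 CPM), *Sdc4* (0.869, 446 CPM) and *Cdh2* (0.834, 322 CPM). Jag2sm replicate 1 was high in *Rgs5* (0.976, 645 CPM), *Gnai2* (0.883, 438 CPM) and *Cxcl5* (0.878, 238 CPM).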

How the results depend on the processing

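Depth limits the low members most. In WT replicate 1 a count of 0 allows up to 17.3 CPM, above every *Cd34* value in WT. The direction of each tested member held under every alternative, and of 117 values 108 kept their side of the threshold. The number of genes called, 594, was 1248 without a filter on low counts, and 251 (without Jag2sm replicate 2) to 616 when a library was left out. Genes called higher, 135, were 206 by DESeq2, 241 with library size alone, 468 without a filter and 20 to 220 without a library. Genes called lower, 459, were 780 without a filter and 221 to 466 without a library. Library size alone moved the median gene by 0.16 on the log2 scale and the share of lower calls from 77.3% to 61.4%. Members called, 1 in all, were 2 with library size alone, 4 without a filter and 0 to 2 without a library. Without a filter, *Vcam1* (log2 fold change 1.05), *Sdc3* (0.99) and *Ackr3* (1.15) were also called, and with library size alone *Sdc3* (1.13). Without a library, the log2 fold change of *Cxcl12* was 1.36 to 1.88 and that of *Sdc3* 0.81 to 1.17. The cause of these changes was not tested. The replicate block changed no call of a member, and beside the genes given with it it lost *Mymx* and gained *Tnnt1*. *Calcr*, which the filter removed, was not called without it (log2 fold change -2.14, adjusted p = 0.616 by edgeR), and DESeq2 gave it no adjusted p.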

Other observations

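The mural list, read above only as a check on *Cxcl12*, held 3 tested genes. *Abcc9*, a subunit of potassium channels, fell in Jag2sm MuSCs, from 40.4, 11.0 and 13.3 CPM in WT to 0, 2.76, 0.493 and 0.815 CPM in Jag2sm replicates 1 to 4 (log2 fold change -3.71, standard error 0.721, adjusted p = 0.0139 by edgeR), on 38 and 6 counts. It was called in all 7 fits that leave out a library. *Abcc9* passed the filter on low counts only through the WT libraries, where it is high, so these calls carry that selection. *Rgs5*, a regulator of G protein signaling, was at 11.5, 12.9 and 14.2 CPM in WT and at 645, 29.7, 40.4 and 25.3 CPM in Jag2sm MuSCs, with every Jag2sm library above WT and an adjusted p of 0.135. *Des*, which encodes the muscle intermediate filament desmin, fell from 4600, 1810 and 1870 CPM to 912, 836, 706 and 1100 CPM (log2 fold change -1.63, standard error 0.361, adjusted p = 0.0244), and was not called with the replicate block (adjusted p = 0.0596), without Jag2sm replicate 1 (0.0601) or without Jag2sm replicate 2 (0.0890). *Myod1*, the myogenic factor of committed myoblasts, averaged 778 ± 71.0 CPM in WT and 685 ± 86.3 CPM in Jag2sm MuSCs (SD over 3 and 4 libraries), a log2 fold change of -0.19 with an interval of -0.68 to 0.30.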
